A study of Mus musculus with 48 samples.

Results

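The Period genes Per1, Per2 and Per3 were followed in the colon of mice that lack the clock gene Bmal1 in the intestinal epithelium and in their control littermates. They were taken as the rows of the gene count table whose Ensembl identifiers carry these symbols in the GENCODE vM21 annotation, which gave 3 of the 55401 genes counted, and all 3 passed the filter on low counts. Levels were measured by RNA sequencing of colon tissue from male mice on a C57BL/6J background, 18 to 20 weeks old, that were killed on the second day of darkness at circadian time (CT, hours of the animals' internal day) 1, 5, 9, 13, 17 or 21. The control mice, Bmal1fl/fl, carried the floxed Bmal1 allele without Cre (Bmal1fl/fl x Villin wt/wt), and the Bmal1iec-/- mice carried the same floxed allele with Cre (Bmal1fl/fl x Villin CRE/wt), with 4 mice per genotype and time and 48 in all. Both genotypes were housed singly with a running wheel and free access to chow. The Villin promoter drives Cre in the intestinal epithelium, while the RNA came from whole colon tissue, in which muscle, stromal, vascular, nerve and immune cells keep Bmal1. Each library held 3144997 to 4785844 counted reads.

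The Period proteins are the negative arm of the circadian clock. BMAL1, paired with CLOCK or NPAS2, binds E-box elements and activates the Period and Cryptochrome genes, whose proteins assemble with casein kinase 1, return to the nucleus and shut that activation down again. Per1 and Per2 also answer to signals from outside the cell, such as cAMP through CREB and glucocorticoids through their receptor, and Per3 is a frequent marker of clock phase in peripheral tissues.

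Values are given over 46 mice. The Bmal1iec-/- CT1 replicates SV384 and SV385 were left out, because the normalized values the study published carry the size factors of the other 46 libraries. In SV385 the summed level of 5 smooth muscle markers was 0.237 times the mean of the 2 other Bmal1iec-/- mice at CT1 and that of 9 epithelial markers 1.48 times it. In SV384 these were 0.923 and 1.18 times, and the sum of 5 fibroblast markers was 1.67 times that mean. With both mice put back, the genes called between genotypes at CT1 went from 218 to 3593. Results that touch CT1 in Bmal1iec-/- mice therefore rest on 2 mice. Where a result of the Period genes is also given over all 48 mice, this is stated with it. Their other tests and fits are over the 46 alone. So are the levels per kb, the coefficients of variation and the genes most like each Period gene.

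Bmal1 itself, listed as Arntl, was measured first. In Bmal1fl/fl mice its normalized count (reads divided by the size factor of the library) was 246 to 286 at CT1 and fell to 15.9 to 35.2 at CT9. In Bmal1iec-/- mice it was 85.8 to 158 at CT9 and 173 to 182 at CT1. The difference between genotypes changed with time (interaction adjusted p = 8.52e-13, edgeR), from a log2 fold change of -0.86 ± 0.15 (SE) at CT21 to 2.08 ± 0.19 at CT9. With circadian time in the model the difference did not pass the test (log2 fold change 0.32 ± 0.17, adjusted p = 0.241). These counts cover all exons of the gene, including those outside the deleted part and those of cells without Cre, so they do not check the deletion itself.

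The Period genes lie on separate chromosomes of mm10. Per1 (ENSMUSG00000020893) spans chr11:69095217-69109960 on the plus strand with 5631 bp of exon, and 13 to 446 reads were counted on it per mouse. Per2 (ENSMUSG00000055866) spans chr1:91415982-91459324 on the minus strand with 5856 bp of exon and 23 to 900 reads. Per3 (ENSMUSG00000028957) spans chr4:151003652-151044665 on the minus strand with 9608 bp of exon and 21 to 544 reads. Camta1 overlaps the Per3 locus on the same strand, but no exon of it overlaps an exon of Per3.

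RefSeq promoter sequences on GRCm38.p6 were at hand for 2 of the 3 genes, with 2 start sites of Per1 and 1 of Per3. The 250 bases before each start site are shown 5′ to 3′ on the strand of the gene, since Period genes are known to be driven through such promoter elements. Capitals mark the E-box CACGTG, the E-prime box CACGTT, the D-box TTATGTAA or TTACGTAA, the cAMP response element TGACGTCA and its shorter form TGACG, which lies inside the longer one, each searched on both strands.
Per1, first start site, chr11:69098699-69098948: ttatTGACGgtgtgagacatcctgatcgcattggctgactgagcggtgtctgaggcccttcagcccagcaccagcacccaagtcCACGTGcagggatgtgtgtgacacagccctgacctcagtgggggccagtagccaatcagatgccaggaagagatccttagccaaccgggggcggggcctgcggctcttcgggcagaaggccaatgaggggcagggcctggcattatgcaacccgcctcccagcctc
Per1, second start site, chr11:69099902-69100151: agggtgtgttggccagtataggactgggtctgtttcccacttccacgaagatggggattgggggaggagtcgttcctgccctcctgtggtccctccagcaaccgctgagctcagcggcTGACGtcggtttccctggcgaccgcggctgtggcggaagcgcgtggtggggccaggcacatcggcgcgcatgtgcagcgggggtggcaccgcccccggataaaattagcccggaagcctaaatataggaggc
Per3, chr4:151044666-151044915: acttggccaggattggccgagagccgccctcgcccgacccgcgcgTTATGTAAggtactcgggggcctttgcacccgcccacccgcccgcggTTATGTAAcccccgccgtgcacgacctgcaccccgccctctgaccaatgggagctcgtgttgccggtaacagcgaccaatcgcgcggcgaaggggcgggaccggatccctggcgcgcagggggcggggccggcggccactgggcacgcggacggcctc

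The first Per1 sequence held 1 E-box, 166 to 161 bases before the start site, and 1 TGACG. The second held 1 TGACG and none of the longer motifs. Per3 held the D-box TTATGTAA 2 times, at 205 to 198 and at 158 to 151 bases before the start site, and no E-box. Among 32851 promoter sequences of the same length, 6.02% held CACGTG, 3.85% CACGTT, 0.819% TTATGTAA, 0.113% TTACGTAA, 1.55% TGACGTCA and 17.8% TGACG. A match of letters does not show that a factor binds, and sites outside these windows were not searched.

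In Bmal1fl/fl mice all 3 Period genes rose and fell once a day, with the lowest levels at CT1 and the highest at CT9 to CT13. All 3 were called rhythmic by JTK_cycle, a rank test for daily rhythms, over the 24 Bmal1fl/fl mice (adjusted p = 1.34e-05 for Per1, 5.18e-08 for Per2 and 1.98e-06 for Per3, by the exact null distribution), where 40.6% of the 14475 genes tested were called. All 3 were also called over the 22 Bmal1iec-/- mice (adjusted p = 0.00325, 0.00115 and 0.000373, by the exact null distribution), where 15.4% of the genes were called, and over all 24 (adjusted p = 0.000934, 0.000346 and 5.93e-05). By its group means the daily course was flatter in Bmal1iec-/- mice. For Per1 neither the interaction of genotype and time nor a change of rhythm was called (adjusted p = 0.300 and 0.550, edgeR). Before adjustment these p were 0.0106 and 0.0804 (edgeR). The highest group mean of Per1 was 15.6 times the lowest in Bmal1fl/fl mice and 3.51 times in Bmal1iec-/- mice. For Per2 these were 20.3 and 2.80 times. For Per3 they were 8.42 and 3.28 times. With all 4 Bmal1iec-/- mice at CT1 the folds of that genotype were 4.27 for Per1, 2.80 for Per2 and 3.64 for Per3. The daily level did not follow 1 pattern: Per3 and Per1 were lower over the day in Bmal1iec-/- mice, while Per2 was higher at its trough and lower at its peak. In bulk tissue, fewer cells of a type and less RNA per cell cannot be told apart.

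**Figure D1:**
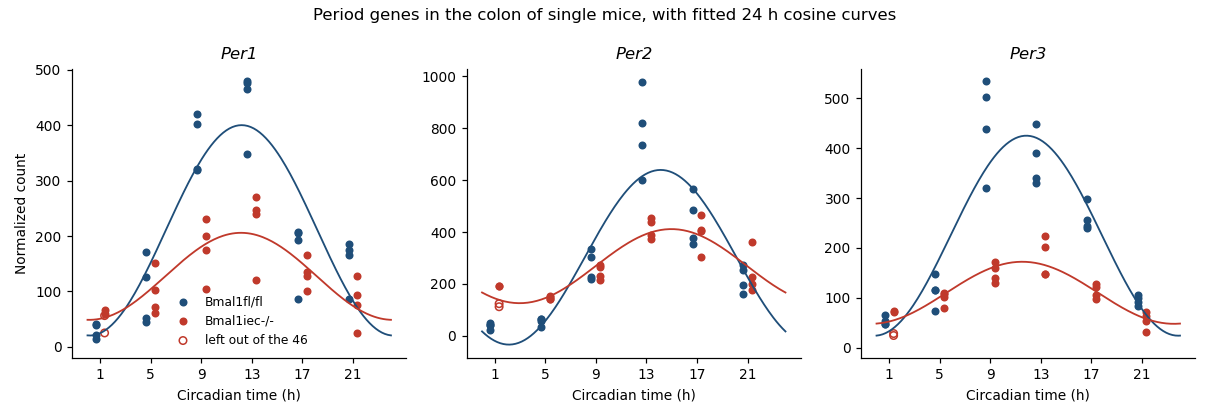
Normalized counts of Per1, Per2 and Per3 (y axis, linear) against circadian time in hours (x axis) in single mice, Bmal1fl/fl in blue and Bmal1iec-/- in red. Lines are fitted 24 h cosine curves over the 46 mice, and open circles are the 2 Bmal1iec-/- mice left out at CT1. The red points of Per2 lie above the blue points at CT1 and CT5 and below them at CT13, while those of Per3 lie below from CT9 to CT21. The blue curve of Per2 dips below 0 around its lowest point, which is a property of the fitted cosine, and no measured value is negative.

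Per2, whose protein binds the Cryptochromes in the repressor complex, had the highest peak-to-trough fold of the 3 genes in Bmal1fl/fl mice and the lowest in Bmal1iec-/- mice. At CT1 the normalized counts of Per2 were 23.7, 41.0, 41.8 and 48.1 in Bmal1fl/fl mice and 191 and 191 in the 2 Bmal1iec-/- mice, and 112 and 124 in the 2 mice left out. At CT5 they were 36.0, 58.7, 65.3 and 66.7 in Bmal1fl/fl mice and 143, 143, 150.0 and 155 in Bmal1iec-/- mice. Every Bmal1iec-/- mouse was above every Bmal1fl/fl mouse at both times, also with the mice left out put back. The log2 fold change was 2.30 ± 0.27 (SE) at CT1 (adjusted p = 4.81e-07, edgeR), where 0.843% of genes were called higher, and 1.38 ± 0.23 at CT5 (adjusted p = 0.000209, edgeR), where 0.311% were. Over all 48 mice the value at CT1 was 2.0 (adjusted p = 5.44e-07, edgeR). Of the Period genes the 1 called at CT1 and at CT5 was Per2. Without the filter on low counts Per1 was called at CT1 too (adjusted p = 1.08e-05, edgeR), with a like fold change and a smaller SE.

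At CT9 the normalized counts of Per2 were 219, 228, 304 and 335 in Bmal1fl/fl mice and 214, 230.1, 266 and 272 in Bmal1iec-/- mice. These ranges overlapped (log2 fold change -0.14 ± 0.18, adjusted p = 0.873, edgeR). At CT13 the normalized counts of Per2 were 599, 737, 820.0 and 979 in Bmal1fl/fl mice and 373, 389, 439 and 453 in Bmal1iec-/- mice. All 4 Bmal1iec-/- mice were below the lowest Bmal1fl/fl mouse, with a log2 fold change of -0.92 ± 0.17 (adjusted p = 0.000376, edgeR). At CT17 the normalized counts of Per2 were 355, 378, 484 and 568 against 305, 405, 407 and 467, and at CT21 they were 161, 195, 252 and 273 against 176, 201, 228 and 361, with Bmal1fl/fl mice first. Ranges overlapped at both times, with log2 fold changes of -0.17 ± 0.17 and 0.14 ± 0.19 (adjusted p = 0.935 and 0.919, edgeR). Across the day these opposite differences left Per2 at a log2 fold change of 0.14 ± 0.16 with circadian time in the model (adjusted p = 0.630, edgeR).

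The group means of Per2 in Bmal1fl/fl mice ran in the order CT13, CT17, CT9, CT21, CT5 and CT1. The neighbours CT9 and CT21, and CT5 and CT1, overlapped, and the others were apart. In Bmal1iec-/- mice the order was CT13, CT17, CT9, CT21, CT1 and CT5. Only the steps from CT17 to CT9 and from CT1 to CT5 were apart, and the latter rested on the 2 mice kept at CT1. The trough thus stood at 38.6 ± 10.4 (SD, n = 4) at CT1 in Bmal1fl/fl mice and at 148 ± 5.67 (SD, n = 4) at CT5 in Bmal1iec-/- mice, and the peak at 784 ± 159 (SD, n = 4) and 413 ± 38.7 (SD, n = 4) at CT13.

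Per3, the Period gene whose loss alters the behavioural rhythm of mice least, was lower in Bmal1iec-/- mice for most of the day. At CT9, its highest time in control mice, the normalized counts of Per3 were 321, 439, 502 and 534 in Bmal1fl/fl mice and 130.3, 139, 160.0 and 172 in Bmal1iec-/- mice. At CT13 the normalized counts of Per3 were 331, 339, 389.7 and 449 in Bmal1fl/fl mice and 147, 148, 202 and 225 in Bmal1iec-/- mice. At CT17 the normalized counts of Per3 were 239.8, 244, 257 and 299 against 97.0, 106, 122 and 128. At all 3 times every Bmal1iec-/- mouse was below every Bmal1fl/fl mouse. The log2 fold changes were -1.57 ± 0.16 at CT9 (adjusted p = 2.92e-09, edgeR), -1.07 ± 0.16 at CT13 (adjusted p = 1.15e-05) and -1.19 ± 0.17 at CT17 (adjusted p = 9.1e-06). The shares of all genes called lower at these times were 0.877% at CT9, 2.46% at CT13 and 0.718% at CT17. Per3 was the 1 Period gene called at CT9 and at CT17, and at CT13 all 3 were called. Without the filter on low counts Per1 was called at CT9 as well, with a like fold change and a smaller SE.

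At CT21 the normalized counts of Per3 were 84.3, 90.8, 100.1 and 106 in Bmal1fl/fl mice and 30.7, 54.5, 63.3 and 71.2 in Bmal1iec-/- mice. The ranges did not overlap, yet the difference did not pass the test (log2 fold change -0.77 ± 0.20, adjusted p = 0.0754, edgeR). None of the 3 Period genes was called at CT21, where 0.394% of all genes were called in either direction. Before adjustment the p of Per1 and Per3 at CT21 were 0.0121 and 0.000408 (edgeR). DESeq2 called Per3 at CT21 (adjusted p = 0.0174), as did edgeR without SV420, SV447 or SV470 (adjusted p down to 0.0358). Without the filter on low counts edgeR called both Per1 (adjusted p = 3.54e-09) and Per3 (adjusted p = 4.12e-05) at CT21, with like fold changes and smaller SE. At CT1 the normalized counts of Per3 were 47.3, 47.5, 52.9 and 65.5 in Bmal1fl/fl mice and 70.9 and 74.0 in the 2 Bmal1iec-/- mice, while the 2 mice left out had 24.6 and 28.5. The kept mice were above all Bmal1fl/fl mice and the mice left out below all of them. The log2 fold change was 0.45 ± 0.26 over the 46 mice and -0.0806 ± 0.26 over all 48, with adjusted p = 0.386 and 0.851 (edgeR). At CT5 the normalized counts of Per3 were 73.0, 115, 116 and 149 against 78.7, 101, 108 and 109, which overlapped (log2 fold change -0.19 ± 0.18, adjusted p = 0.988, edgeR).

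With circadian time in the model, Per3 was lower in Bmal1iec-/- mice by a log2 fold change of -0.89 ± 0.11 (adjusted p = 6.12e-08, edgeR). In Bmal1fl/fl mice its group means ran in the order CT9, CT13, CT17, CT5, CT21 and CT1, with overlap between CT9 and CT13 and between CT5 and CT21. In Bmal1iec-/- mice the order was CT13, CT9, CT17, CT5, CT1 and CT21, where CT9 was apart from CT17 and CT5 from CT1, and the other neighbours overlapped. Over all 4 mice the CT1 mean of Per3 in Bmal1iec-/- mice was 49.5 ± 26.6 (SD, n = 4), below the 54.9 ± 17.5 (SD, n = 4) at CT21.

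Per1, known for its quick induction by cAMP and glucocorticoid signals, had the widest spread between mice of a group, with a median coefficient of variation over the 12 groups of 30.6%, against 20.7% for Per2 and 14.3% for Per3. At CT13 the normalized counts of Per1 were 348, 465, 476 and 479 in Bmal1fl/fl mice and 121, 240.1, 248 and 270.4 in Bmal1iec-/- mice. At CT9 the normalized counts of Per1 were 320.1, 322, 402 and 420.1 in Bmal1fl/fl mice and 104, 175, 199.9 and 232 in Bmal1iec-/- mice. At both times every Bmal1iec-/- mouse was below every Bmal1fl/fl mouse. The log2 fold change passed the test at CT13 (-1.01 ± 0.30, adjusted p = 0.0397, edgeR) and not at CT9 (-1.03 ± 0.31, adjusted p = 0.0819, edgeR). The call at CT13 was not made by DESeq2 (adjusted p = 0.108) or over all 48 mice (adjusted p = 0.0539, edgeR), and it was lost without any of 6 single mice (SV395, SV397, SV421, SV424, SV448 or SV449, adjusted p up to 0.177).

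At CT1 the normalized counts of Per1 were 13.4, 21.1, 38.5 and 40.7 in Bmal1fl/fl mice, 59.3 and 65.8 in the 2 Bmal1iec-/- mice and 24.8 and 56.2 in the 2 mice left out. The kept mice were above all Bmal1fl/fl mice, but with the mice left out the ranges overlapped. At CT5 the normalized counts of Per1 were 45.2, 52.6, 127 and 172 against 60.5, 71.2, 102 and 151, at CT17 they were 86.1, 193, 206 and 208 against 101, 128, 134 and 166, and at CT21 86.3, 165, 175 and 185 against 24.7, 76.2, 93.5 and 127, with Bmal1fl/fl mice first. Ranges overlapped at these 3 times, and none of the differences at CT1, CT5, CT17 and CT21 passed the test, with log2 fold changes of 1.13 ± 0.55, -0.05 ± 0.36, -0.39 ± 0.33 and -0.92 ± 0.35 (SE) in turn. With all 48 mice the value at CT1 was 0.86 ± 0.47 (adjusted p = 0.180, edgeR). Without the filter on low counts edgeR called Per1 at CT1 (1.15 ± 0.21, adjusted p = 1.08e-05), CT9 (-1.03 ± 0.12, adjusted p = 2.2e-15) and CT21 (-0.92 ± 0.13, adjusted p = 3.54e-09), with like fold changes and smaller SE. The Period genes pass the filter, so their own counts were the same in both runs. These calls came from a smaller estimate of the spread and not from a larger difference, and they add no evidence for one. With circadian time in the model, Per1 was lower in Bmal1iec-/- mice by a log2 fold change of -0.59 ± 0.16 (adjusted p = 0.00986, edgeR). This call was not made by DESeq2 (-0.47, adjusted p = 0.0850), nor by edgeR without CT9 (adjusted p = 0.0973) or without CT13 (adjusted p = 0.122). Of the 3 Period genes 2 were thus called lower over the day, where 5.64% of all genes were, and 0 were called higher, where 5.44% were. At an unadjusted p under 0.05 no Period gene was higher by edgeR either, and DESeq2 called none higher.

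The group means of Per1 in Bmal1fl/fl mice ran in the order CT13, CT9, CT17, CT21, CT5 and CT1, and only the steps from CT9 to CT17 and from CT5 to CT1 were apart. In Bmal1iec-/- mice the order was CT13, CT9, CT17, CT5, CT21 and CT1, and every pair of neighbours overlapped. The peak of Per1 stood at 442 ± 63.0 (SD, n = 4) in Bmal1fl/fl mice and 219.8 ± 67.0 (SD, n = 4) in Bmal1iec-/- mice, and the trough at 28.4 ± 13.3 (SD, n = 4) and 62.5 ± 4.61 (SD, n = 2), the latter 51.5 ± 18.2 (SD, n = 4) with the mice left out put back.

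**Figure D2:**
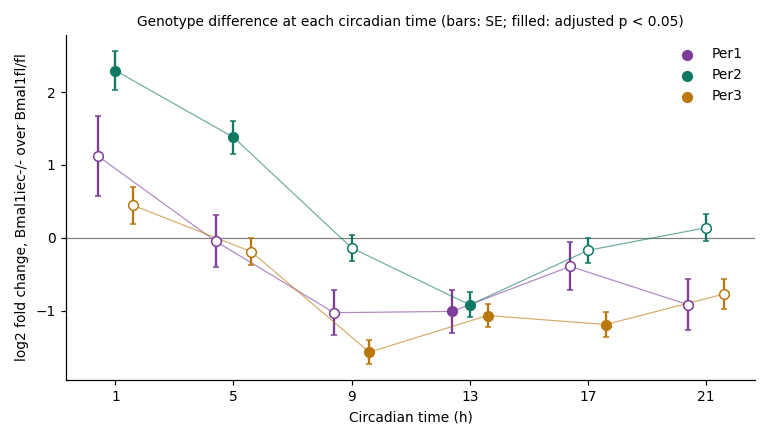
Log2 fold change of Bmal1iec-/- over Bmal1fl/fl mice (y axis) at each circadian time in hours (x axis) for Per1, Per2 and Per3 over the 46 mice, from edgeR. Bars are SE, filled points have an adjusted p under 0.05, and points of the 3 genes are set slightly apart along the x axis. Per2 starts at 2.30 at CT1 and reaches -0.92 at CT13, while Per3 stays between -0.77 and -1.57 from CT9 to CT21.

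Whether the genotype difference itself changed over the day was tested directly. In a model of 12 group means, the interaction of genotype and time was called for Per2 (adjusted p = 6.08e-09, edgeR) and Per3 (adjusted p = 0.000207) and not for Per1 (adjusted p = 0.300), against 0.58% of all genes. With a 24 h cosine in place of the group means, the rhythm was called changed for Per2 (adjusted p = 5.94e-07, edgeR) and Per3 (adjusted p = 0.00570) and not for Per1 (adjusted p = 0.550), against 0.94% of all genes. Over all 48 mice the interaction and the change of rhythm of Per2 and Per3 were called again, Per3 with adjusted p = 0.00682 and 0.0328 (edgeR), and those of Per1 were not (adjusted p = 0.126 and 0.465). Without the filter on low counts the interaction of Per1 was called (adjusted p = 1.59e-21, edgeR) and its change of rhythm was not (adjusted p = 0.369). In that run the differences of Per1 had like fold changes and smaller SE, at CT13 0.116 against 0.301. Both tests work on a log scale, on which equal folds at all times are no change.

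The cosine fits gave the height and timing of the rhythms on the linear scale, as values without a test. The amplitude, from the mean to the peak, of Per1 was 190.1 ± 22.5 (SE, normalized count) in Bmal1fl/fl mice and 78.6 ± 14.2 in Bmal1iec-/- mice, a ratio of 0.414 with a 95% interval of 0.233 to 0.594. That of Per2 was 336 ± 36 and 143 ± 16.3, a ratio of 0.424 (0.290 to 0.559). For Per3 the amplitude was 200.4 ± 19.1 and 62.2 ± 7.18, a ratio of 0.310 (0.216 to 0.404). All 3 intervals lay below 1 and overlapped each other. The ratios over all 48 mice were 0.422 for Per1, 0.436 for Per2 and 0.330 for Per3. On the log2 scale they were 0.536 ± 0.127 (SE), 0.359 ± 0.043 and 0.551 ± 0.075, so that Per3 had the lowest ratio on the linear scale and Per2 on the log2 scale. The baseline, the mean level around which the curve swings, was 0.605 ± 0.065 times that of Bmal1fl/fl mice for Per1, 0.887 ± 0.083 times for Per2 and 0.490 ± 0.037 times for Per3 (0.601, 0.880 and 0.481 times over all 48 mice). Per2 thus swung at 0.424 times the control amplitude around 0.887 times the control baseline.

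Fitted peak times on the linear scale differed between genotypes by at most 0.85 h. In Bmal1fl/fl mice the fitted peak was at CT 11.8 ± 0.36 h (SE) for Per3, 12.2 ± 0.45 h for Per1 and 14.1 ± 0.41 h for Per2. The Bmal1iec-/- mice gave peaks at 11.5 ± 0.41 h, 12.1 ± 0.63 h and 15.0 ± 0.42 h. The shift from Bmal1fl/fl to Bmal1iec-/- mice was -0.32 h for Per3 (95% interval -1.43 to 0.78), -0.05 h for Per1 (-1.62 to 1.52) and 0.85 h for Per2 (-0.33 to 2.03), and each interval held 0, as it did over all 48 mice (shifts of -0.23, -0.03 and 0.79 h). The order of the peaks, Per3 then Per1 then Per2, was the same in both genotypes, with Per2 2.28 h after Per3 in Bmal1fl/fl mice and 3.46 h after it in Bmal1iec-/- mice. On the log2 scale the fitted peaks of Per3, Per1 and Per2 were at 12.3 ± 0.26 h (SE), 12.8 ± 0.53 h and 14.4 ± 0.24 h in Bmal1fl/fl mice. In Bmal1iec-/- mice they were at 11.2 ± 0.43 h, 12.1 ± 0.67 h and 15.0 ± 0.37 h. The peak of Per3 thus lay further apart between genotypes on that scale than on the linear one, and the shift there was not tested. Sampling every 4 h limits how finely a peak can be placed.

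**Figure D3:**
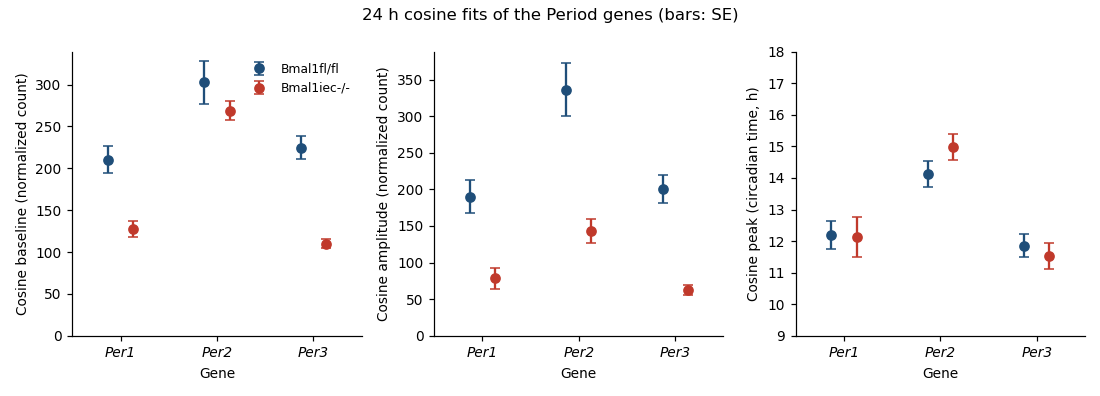
Baseline and amplitude in normalized counts and peak in hours of circadian time (y axes) of the 24 h cosine fitted to each Period gene (x axis), in 24 Bmal1fl/fl mice (blue) and 22 Bmal1iec-/- mice (red). Bars are SE, and the axes of baseline and amplitude start at 0. The amplitude of each gene is lower in Bmal1iec-/- mice, and the baseline of Per2 is 0.887 times that of Bmal1fl/fl mice. The peak times of these linear-scale fits lie within 0.85 h of each other between genotypes.

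The balance among the 3 genes was compared within each mouse, on counts per kb of exon, which sets the genes on one scale and is free of library scaling. Over the 6 times the mean level per kb of Bmal1fl/fl mice was 51.7 for Per2, 37.3 for Per1 and 23.4 for Per3. The Bmal1iec-/- mice had 46.5, 22.8 and 11.6. Per2 was above Per3 per kb in 17 of 24 Bmal1fl/fl mice and in 22 of 22 Bmal1iec-/- mice. Per2 was above Per1 in 16 of 24 and 21 of 22 mice, and Per1 above Per3 in 20 of 24 and 21 of 22.

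The ratio of Per2 to Per3 was higher in Bmal1iec-/- mice by 1.14 on the log2 scale (permutation test within circadian times, 46 mice, two-sided p = 1e-05, the smallest that 100000 resamples can give, adjusted over 3 ratios p = 3e-05). The ratio of Per1 to Per2 was lower, by a log2 difference of -0.80 (permutation adjusted p = 4.5e-05). With all 48 mice these differences were 1.24 and -0.82 (permutation adjusted p = 3e-05 for both). The ratio of Per1 to Per3 differed by 0.34 (permutation adjusted p = 0.0598) and did not pass the test, although it did over all 48 mice (0.42, permutation adjusted p = 0.0226). In Bmal1fl/fl mice the log2 ratio of Per2 to Per3 lay between -0.63 and 0.63 in all mice at CT1, CT5 and CT9 and rose to 1.90 ± 0.20 (SD, n = 4) at CT21. In Bmal1iec-/- mice it was 1.30 ± 0.24 (SD, n = 4) at CT5 and 2.86 ± 0.33 (SD, n = 4) at CT21. At CT13 the genotypes overlapped, at 1.76 ± 0.46 (SD, n = 4) in Bmal1fl/fl and 1.93 ± 0.44 (SD, n = 4) in Bmal1iec-/- mice.

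**Figure D4:**
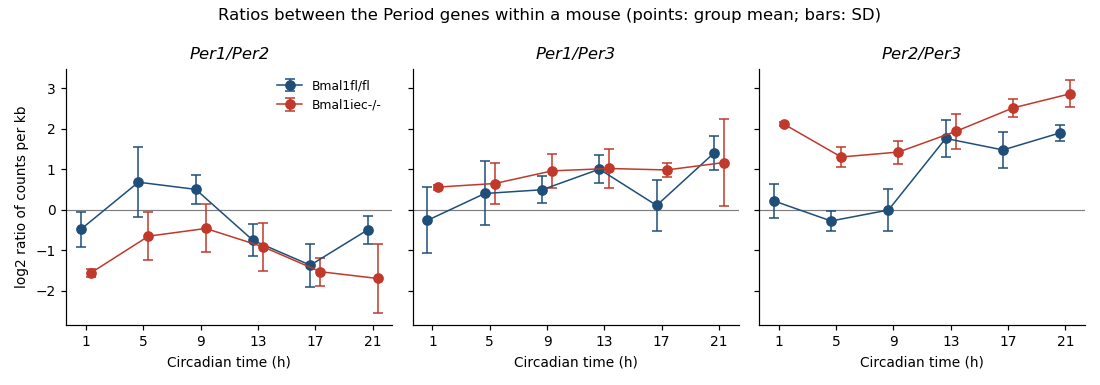
Log2 ratio of counts per kb between pairs of Period genes within a mouse (y axis) against circadian time in hours (x axis). Points are group means, bars are SD, Bmal1fl/fl in blue and Bmal1iec-/- in red, with 4 mice per group and 2 for Bmal1iec-/- at CT1. The red line of Per2/Per3 runs above the blue line, with a mean difference of 1.14, and that of Per1/Per2 runs below it, with a mean difference of -0.80.

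Mice with more of one Period gene tended to have more of the others, and less so once the mean of each sampling time was taken out. Over the 24 Bmal1fl/fl mice Pearson's r on log2 normalized counts was 0.85 for Per1 and Per2, 0.86 for Per1 and Per3 and 0.80 for Per2 and Per3. With the mean of each time removed it was 0.52, 0.28 and 0.21. Over the 22 Bmal1iec-/- mice it was 0.54, 0.76 and 0.48, and 0.28, 0.36 and 0.41 with the time means removed. Over all 24 it was 0.64, 0.80 and 0.64, and 0.34, 0.39 and 0.66 with the time means removed. These correlations describe mice that share sampling times and library scaling and carry no test.

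The genes whose course over the 24 Bmal1fl/fl mice was most like each Period gene were then listed. For Per1 they were Rhbdf1 (r = 0.94), Esrra (0.94), Myo15b (0.93), 2010300C02Rik (0.93) and Plcd1 (0.92), and the most opposite were Arl4a (-0.91), Zfand5 (-0.90) and Rai14 (-0.90). For Per2 the highest were Usp2 (0.95), which encodes a deubiquitinase, Hsd11b2 (0.94), which inactivates glucocorticoids, Cltb (0.94), the Cryptochrome gene Cry2 (0.94) and Fam43a (0.93), and the lowest Ms4a12 (-0.93), Il1r1 (-0.92) and Slc8a1 (-0.92). For Per3 they were Tef (0.96) and Hlf (0.95), both of the PAR bZip family that binds D-boxes, Ucp2 (0.90), Smim24 (0.90) and Blnk (0.90), and the lowest Npas2 (-0.94), Cldn8 (-0.92) and Mtch2 (-0.92). Over the 22 Bmal1iec-/- mice the r of Per3 with Tef was 0.93, while that with Npas2 was 0.59. The r of Per1 with Esrra was 0.39 there and that of Per2 with Cry2 was 0.46. The list was chosen for the highest and lowest r in Bmal1fl/fl mice, so weaker values in the other genotype are to be read with that in mind. The r of Per3 with Npas2 had the opposite sign there, and that difference was not tested.

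The pathway around the Period genes was read from 5 lists, beside 5.44% of all genes called higher and 5.64% called lower with circadian time in the model. Of the 3 activators of Period transcription, 1 rose with circadian time in the model: Npas2, the partner that can replace CLOCK, by a log2 fold change of 1.39 ± 0.12 (adjusted p = 7.25e-13, edgeR). Clock stood at 0.15 ± 0.07 and did not pass the test, and the median of the list was 0.32. The interaction with time was called for 2 of the 3, Npas2 (adjusted p = 2.46e-08, edgeR) and Arntl, beside 0.58% of all genes. Of the 11 Period partners and members of the repressor complex 4 were called, each of them higher (5.44% of all genes). Cry1, the Cryptochrome with the strongest repressor activity, had the largest difference of the list (1.28 ± 0.13, adjusted p = 3.94e-10, edgeR), and the other three, Cry2, Sfpq and Wdr5, rose by at most 0.27. The median of this list was 0.05, beside 0.00489 over all genes tested. The interaction with time was called for 2 of the 11, Cry1 (adjusted p = 2.21e-10, edgeR) and Cry2 (adjusted p = 0.0152). For Cry1 the log2 fold change was 2.12 at CT9 and 0.62 at CT13.

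Of the 9 other E-box clock targets 6 were called, each of them lower (5.64% of all genes), with a median log2 fold change of -0.50. The REV-ERB genes Nr1d1 and Nr1d2, which repress Bmal1, fell with log2 fold changes of -1.48 and -1.74 (adjusted p = 2.39e-13 and 2.86e-23, edgeR). Ciart, a repressor of BMAL1 and CLOCK, and Dbp, the D-box activator, fell too, with log2 fold changes of -1.4 and -0.88 (adjusted p = 1.01e-08 and 8.25e-06, edgeR). Tef and Wee1 fell by less, and Hlf, Bhlhe40 and Bhlhe41 did not pass the test. The interaction of genotype and time was called for 3 of the 9, namely Tef (adjusted p = 1.82e-09, edgeR), Dbp (adjusted p = 0.0363) and Wee1 (adjusted p = 0.0469), beside 0.58% of all genes. It was not called for Nr1d1 and Nr1d2 (adjusted p = 0.584 and 0.758, edgeR) or for the other four.

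Of 13 kinases, phosphatases and turnover genes that act on Period proteins 12 were tested and 2 called, both lower (5.64% of all genes), with a median log2 fold change of -0.01. These were Csnk1e, a casein kinase 1 that phosphorylates the Period proteins (-0.20 ± 0.06), and Usp2 (-0.42 ± 0.13), both called by edgeR (adjusted p = 0.0395 and 0.0305). At CT13 they stood at -0.45 (adjusted p = 0.0498, edgeR) and -1.24 (adjusted p = 9.31e-05), and the interaction with time was called for Usp2 (adjusted p = 0.00242). Of the 12 genes of the CREB and glucocorticoid pathway, 2 rose (5.44% of all genes) and 1 fell (5.64%), with a median of -0.06. Sgk1, a kinase induced by glucocorticoids, rose by 0.70 ± 0.13 (adjusted p = 0.000123, edgeR) and Tsc22d3, another such target, by 0.39 ± 0.10 (adjusted p = 0.00699). Nr4a1, a target of CREB, fell by 0.50 on the log2 scale (adjusted p = 0.0279, edgeR). Sik1, also induced by CREB, stood at -0.30 ± 0.12 over the day and did not pass the test. At CT13 Sik1 (-0.92, adjusted p = 0.0253, edgeR) and Fos (-1.19, adjusted p = 0.0199) were called lower, beside 2.46% of all genes. No gene of this list was called higher at CT13, and the interaction with time was called for none of them. Over all 48 mice Usp2 (adjusted p = 0.121, edgeR) and Nr4a1 (adjusted p = 0.0790) were not called.

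**Figure D5:**
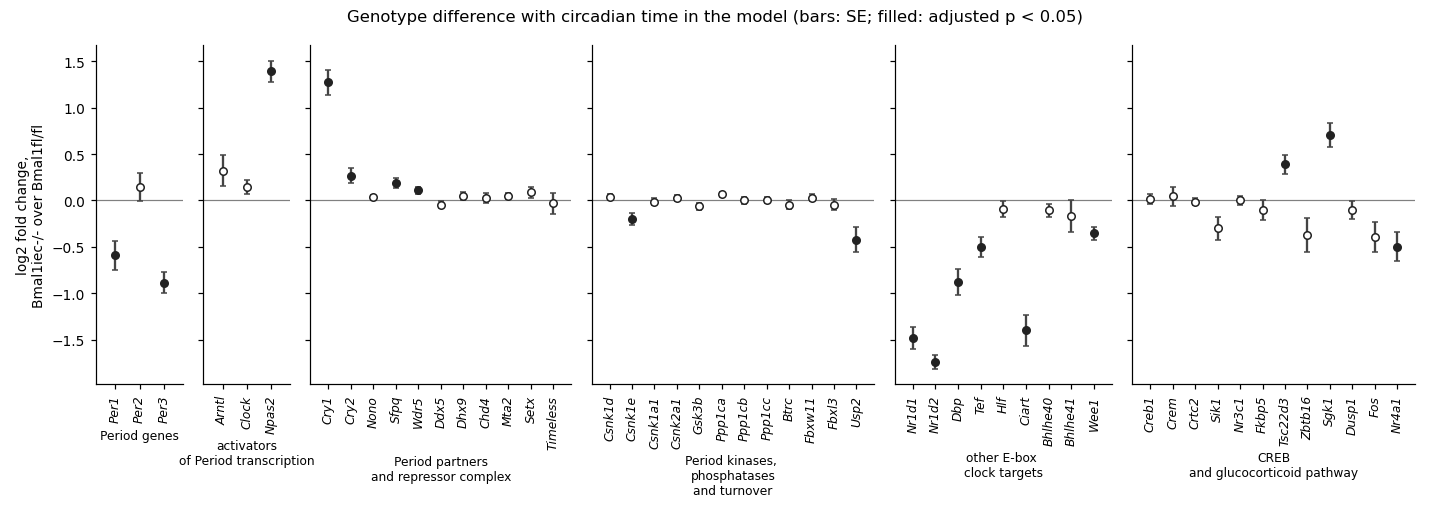
Log2 fold change of Bmal1iec-/- over Bmal1fl/fl mice with circadian time in the model (y axis) for each gene of the Period family and of the 5 pathway lists (x axis), over the 46 mice, from edgeR. Bars are SE and filled points have an adjusted p under 0.05. The E-box targets Nr1d1, Nr1d2 and Ciart lie lower than Per1 and Per3, Npas2 and Cry1 lie above 1, and of the kinases and phosphatases Csnk1e at -0.20 and Usp2 at -0.42 are filled.

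Markers of the cell types in the tissue were measured beside these results. The summed normalized count of 9 epithelial markers was 52534 to 81312 (median 64540) in Bmal1fl/fl mice and 56993 to 78035 (median 65151) in Bmal1iec-/- mice. That of 5 smooth muscle markers was 11423 to 17047 (median 14810) and 10092 to 16730 (median 13076), and that of 5 fibroblast markers 2649.6 to 3946 (median 3327) and 2122 to 3950.5 (median 3007). With circadian time in the model 3 epithelial markers rose and 2 fell, and 2 of 5 smooth muscle, 1 of 5 fibroblast, 2 of 3 endothelial and 1 of 4 nerve and glia markers fell, and those that were called in these 4 lists were all lower, beside 5.64% of all genes called lower. Of the T cell, B cell and macrophage markers none was called by edgeR, and 1 had an unadjusted p under 0.05. No marker of any list was at 0 in all mice of a genotype. At CT1 the 2 Bmal1iec-/- mice kept had the highest epithelial and the lowest smooth muscle and fibroblast means of the 6 times, at 72887, 11455 and 2179, so the difference of Per2 at CT1 came with less of the markers of other cells. The part of cell makeup in the Period results was not tested.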

How the data were processed

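Colon RNA of 48 mice, 4 per genotype and circadian time, was sequenced by the authors as stranded, paired-end mRNA libraries. Per the submitters' processing notes the tools were FastQC 0.11.5, Trimmomatic 0.39, STAR 2.7.5c, SAMtools 1.3.1, featureCounts 1.4.6 and DESeq2 1.22.0, with the mm10 build. The deposited values are the authors' raw read counts per gene, from 3144997 to 4785844 per library, and their strand setting is not given in the sources used here. No label gives a batch, and replicates carry unpaired numbers. That SV384 and SV385 were outside the study's 46 mice was checked by matching size factors to its published normalized values (largest relative deviation 1.81e-07, against 0.00442 or more for other pairs of mice).

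Genes were kept by filterByExpr (14475) and fitted with edgeR 4.0.16 (TMM, quasi-likelihood F test, Benjamini-Hochberg over all of them), with DESeq2 1.42.0 as an alternative, in R 4.3.3. A call is an adjusted p under 0.05. Normalized counts are counts over DESeq2 size factors of the 46 mice. JTK_cycle (24 h, 12 phases) and the cosine fits were run in Python 3.11.15 with numpy 2.4.6. The edgeR and JTK_cycle steps were tested on simulated data. A count of 0 allows up to 3 reads. Named genes are the Period genes, Arntl, list genes called with at least a 1.5-fold change, and the 5 highest and 3 lowest correlations per Period gene on log2(normalized count + 1). Other genes named (Clock, Cry2, Sfpq, Wdr5, Tef, Hlf, Bhlhe40, Bhlhe41, Wee1, Csnk1e, Tsc22d3, Nr4a1, Sik1, Fos, Fkbp5, Crtc2, Dusp1 and Zbtb16) complete a count or were chosen after their values were seen. The members and lists were chosen with earlier results of these data known. Alternatives were all 48 mice, DESeq2, other normalizations, no filter on low counts, no time term, each time or mouse left out, a 12 h term, a log2 scale and, for rhythms, an edgeR cosine.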

Additional observations from a re-analysis of the deposited data

Results flagged for a closer look

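The genotype difference of Per2 changed over the day, with a log2 fold change of 2.30 at CT1 and -0.92 at CT13, and the test of that change, the interaction of genotype and circadian time, gave an adjusted p = 6.08e-09 (edgeR). That of Per3 changed from 0.45 at CT1 to -1.57 at CT9 (interaction adjusted p = 0.000207, edgeR).

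In 2 of 33 groups of 4 mice, 1 mouse lay farther from the others than Dixon's 95% limit allows, both times for Per1 in Bmal1fl/fl mice. Replicate SV396 had a normalized count of 348 at CT13, against 465 to 479 in the other mice. Replicate SV453 had 86.1 at CT17, against 193 to 208. Chance alone flags about 1 in 20 such groups.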

How the results depend on the processing

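Calls of the rhythm of all 3 Period genes in both genotypes, and of the interaction and the change of rhythm of Per2 and Per3, held in every alternative run. Leaving out any 1 mouse changed none of the calls over the day. For Per1 over the day, the call was lost with DESeq2 (-0.47), without the time term (-0.64), without CT9 (-0.48) and without CT13 (-0.47). Per2 over the day, never called, was at -0.11 without the time term, -0.066 without CT1 and -0.0326 without CT5. Per3 at CT1, never called, was at -0.0806 over all 48 mice. Without the filter on low counts edgeR also called the interaction of Per1 (adjusted p = 1.59e-21), Per1 at CT1 (1.15), CT9 (-1.03) and CT21 (-0.92) and Per3 at CT21 (-0.78), and the SE of Per1 at CT13 was 0.116 there. With the filter that SE was 0.301. The counts of the Period genes were the same and their fold changes nearly so, so these calls came from the smaller SE. Over all 48 mice the ratio of Per1 to Per3 was called (0.42), and leaving out 1 mouse gave 0.28 to 0.43, and made it a call without SV395, SV397, SV418, SV433, SV441, SV443, SV469, SV471 or SV477. With 1 mouse left out Per1 at CT13 ran from -1.13 to -0.80 and Per3 at CT21 from -0.92 to -0.60, and Per1 at CT9 was called without SV471 (adjusted p = 0.0432, edgeR). Leaving out 1 mouse turned the sign of Per2 at CT21 without SV470 (-0.13 to 0.26) and of Per1 at CT5 without SV440, SV442, SV443 or SV477 (-0.37 to 0.36), neither of them called. On the log2 scale the amplitude ratio was 0.536 for Per1, 0.359 for Per2 and 0.551 for Per3. The peak in Bmal1fl/fl mice was then at 12.8 h for Per1 and 12.3 h for Per3, against 12.1 h and 11.2 h in Bmal1iec-/- mice.

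The number of genes called moved more. The interaction called 84 genes and 195 with DESeq2, 574 over 48 mice, 803 without the filter and 52 to 143 with 1 mouse left out (beyond 1.5 times without SV469, SV479 or SV480). The change of rhythm called 136 and 278 over 48 mice. At CT1 218 were called, with 349 by DESeq2, 3593 over 48 mice, 621 without the filter and 12 to 322 with 1 mouse left out (SV454, SV455, SV468, SV479 or SV480). Without the filter the other times gave 224 at CT5 (66 with it), 456 at CT9 (263), 349 at CT17 (161) and 302 at CT21 (57), and with 1 mouse left out CT5 gave 38 to 72 (SV443 or SV447), CT13 412 to 775 (SV396, SV397 or SV424; 683 with all) and CT21 38 to 74. Over the day 1605 were called and 819 without the time term. An edgeR cosine called 3380 genes rhythmic in Bmal1iec-/- mice, against 2231 by JTK_cycle. The cause was not tested. No paired analysis was possible because the replicates of the genotypes share no numbers. With 13 to 900 reads per Period gene and mouse, counting error adds to the spread of the lowest groups.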

Other observations

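Within a group of mice killed at the same time, the Period genes still varied, and these residuals were compared with those of the 12 genes of the CREB and glucocorticoid list. The comparison was chosen after seeing the data, and covers 36 relations over 46 mice, each with its group mean removed. Genes outside this list were not compared in this way, so how common such relations are among all genes is not known. The part of library scaling and of cell makeup in them was not tested. With Per1, the residual of Sik1, a kinase gene induced by CREB, gave Pearson's r = 0.72 (permutation within groups, adjusted p = 0.00072) and Spearman's rho = 0.69 (permutation adjusted p = 0.00036). Pearson's r was 0.66 without the 2 mice farthest from the median of Sik1, and it was 0.64 within Bmal1fl/fl and 0.82 within Bmal1iec-/- mice. The raw permutation p were 2e-05 and 1e-05, and the latter is the smallest that the resamples can give.

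Tsc22d3 and Sgk1, both induced by glucocorticoids, gave Pearson's r = 0.58 and 0.59 with Per1 (permutation adjusted p = 0.00234 and 0.00624) and rho = 0.64 and 0.55 (permutation adjusted p = 0.00144 and 0.00708). Without the 2 mice farthest from the median of each gene, r was 0.57 and 0.56. Within Bmal1fl/fl mice they gave 0.69 and 0.51, and within Bmal1iec-/- mice 0.43 and 0.66.

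Per2 related to Tsc22d3 (r = 0.53, permutation adjusted p = 0.0153, rho = 0.51, permutation adjusted p = 0.0184), at 0.70 within Bmal1fl/fl and 0.15 within Bmal1iec-/- mice, and the difference between genotypes was not tested. It also related to Fkbp5 (r = 0.43, permutation adjusted p = 0.0488, rho = 0.49, permutation adjusted p = 0.0210). Without the 2 mice farthest from the median of each gene, these r were 0.42 and 0.41. By Spearman's rho alone Per1 also related to Dusp1 (rho = 0.40, permutation adjusted p = 0.0423, r = 0.29, permutation adjusted p = 0.141) and Per2 to Zbtb16 (rho = 0.46, permutation adjusted p = 0.0263, r = 0.39, permutation adjusted p = 0.0819). No relation of Per3 passed the adjustment, the nearest being Crtc2 by Pearson's r (r = 0.34, permutation p = 0.0464, adjusted p = 0.167) and Tsc22d3 by Spearman's rho (rho = 0.35, permutation p = 0.0334, adjusted p = 0.109).

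Over all 48 mice the relations of Per1 with Sik1, Tsc22d3 and Sgk1 (r = 0.71, 0.60 and 0.56) and of Per2 with Tsc22d3 (r = 0.50) passed by both measures, and that of Per2 with Fkbp5 did not (r = 0.35, permutation adjusted p = 0.114). That of Per2 with Zbtb16 passed by both (r = 0.47, permutation adjusted p = 0.0179), that of Per1 with Crtc2 by rho alone (rho = 0.46, permutation adjusted p = 0.0289), and that of Per1 with Dusp1 by neither.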
